A study of Procambarus virginalis with 4 samples.

Results

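Split gene models are the 410 of 12978 gene models in the methylation table that occupied more than 1 row, and they contributed 910 of its 13478 rows (6.75%). A row belonged to a split model when its identifier, with any final piece number and the ending "covsplit" removed, was shared with at least 1 other row. The table held whole-genome bisulfite sequencing of hemocytes, the circulating immune cells in the hemolymph of the marbled crayfish Procambarus virginalis. The samples were 2 animals injected with double-stranded RNA against Dnmt1 (Dnmt1 KD) and 2 animals injected with double-stranded RNA against GFP, a sequence the crayfish does not have (control), all taken 28 days post injection. Marbled crayfish reproduce by parthenogenesis as 1 clone, so both groups share their genotype, and the knockdown acts on the whole animal and not on 1 hemocyte type. Each value was the average methylation ratio of a row in 1 animal, given here as a percent. The identifiers carried no gene name and no position, so neither the level of Dnmt1 nor hemocyte markers could be read from this table, and the number of reads or CpGs behind a row is unknown. The study lists the depth of each library, and animal 1 was sequenced more deeply than animal 2 in both groups.

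In invertebrates, DNA methylation sits mostly on CpG dinucleotides inside gene bodies, where some genes are densely methylated along their length and others carry almost none. Dnmt1 is the maintenance methyltransferase, which copies the methylation pattern of the parental strand onto the new strand after replication. A gene body is therefore usually described by 1 average, and a split gene model is a place where several averages of the same annotated gene can be set beside each other.

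Most split models were short lists of rows. There were 342 models with 2 rows, 55 with 3, 9 with 4, 2 with 5, 1 with 7 and 1 with 8. Of the 910 rows, 892 carried the numbered ending and 18 did not. Piece numbers ran from 0 to 39, and 252 of the models had no row numbered 0. Among 397 models with at least 2 numbered rows, 199 had consecutive numbers and 198 lacked a number between the lowest and the highest, so the rows listed were often not all pieces that had been numbered. What the numbers stand for along the gene is not stated in the sources used here. The split models lay on 238 of 8115 contig prefixes, of which 206 held a single split model and 1 held 31. The 4 prefixes with most rows held 19.0% of split models and 11.0% of models with 1 row.

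Some rows repeated each other. Within models, 57 rows in 27 models had the same values in all 4 animals as another row of their model, and all 57 were at 0 in every animal. These were counted once, which left 880 rows, and 23 models then had a single row at 0. Of the 880 rows, 198 (22.5%) held values that also recurred in unrelated rows, meaning 100% in some animal or a value above 0 shared with at least 5 other rows, against 21.4% of models with 1 row. The main counts and gaps are also given without these rows, and named models that hold one are marked.

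Rows of split models were more methylated than models with 1 row in every animal. The mean level of the 880 rows was 20.1% and 18.5% in the Dnmt1 KD animals and 34.2% and 31.5% in the control animals. In 12568 models with 1 row it was 15.7% and 14.6% in the Dnmt1 KD animals and 26.3% and 23.6% in the control animals. The excess was 4.37 and 3.96 percentage points in the KD animals and 7.90 and 7.98 points in the controls, all above 0 (exact two-sided sign-flip permutation test over 4 animals, p = 0.13, the smallest it can give). Rows at 50% or more made up 12.8% and 9.32% of split-model rows in the KD animals and 33.8% and 30.2% in the controls, against 7.84% and 5.86% of models with 1 row in KD and 21.4% and 19.2% of them in the controls. Models with more rows stood higher, an order that was not tested. The mean over the group was 18.4% in KD and 31.4% in controls for models with 2 rows, 21.9% in KD and 37.0% in controls for 3 rows, and 22.9% in KD and 38.5% in controls for 4 or more. Models with 1 row whose piece number was 1 or higher, 1373 rows, lay between, with 17.2% in KD and 28.6% in controls.

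Methylation of split-model rows was lower in the Dnmt1 KD animals. The mean was 19.3% ± 1.09 in Dnmt1 KD and 32.9% ± 1.88 in controls (SD, n = 2 each). The groups did not overlap and their means differed by -13.6 percentage points. The exact two-sided permutation p over 2 against 2 animals was 0.33, which is the smallest this design can give. By the study's rule of a difference above 0.1 between group averages, 400 of 880 rows (45.5%) were lower in KD, against 36% of all rows in the table, and 3 were higher, against 0.565% of all rows. Without rows of recurring values, 277 of 682 rows (40.6%) were lower, against 34.4% of all such rows. Among the 497 rows with at least 10% methylation in the mean of the 4 animals, 397 (79.9%) were lower by this rule. The share was 67.3% of all rows above that minimum, and the 2 sets were not matched for level. In 586 rows (66.6%) the 2 KD values were both lower than the 2 control values, against 56.3% of all rows, and above both in 14 rows, against 1.66%.

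No row passed a test across the whole table. In limma with Benjamini-Hochberg adjustment over 12147 rows, 796 of them from split models, 0 split-model rows had an adjusted p under 0.05 and the background was likewise 0%. The smallest adjusted p was 0.0793. At an unadjusted p under 0.05, 330 rows (41.5%) were lower, against 32.2% of all rows, and 6 were higher, against 0.469%. Without rows of recurring values the same test called 130 of 598 split-model rows lower (21.7%) at an adjusted p under 0.05, against 15.7% of all rows tested. Without a trend in limma's prior variance it called 136 of 796 (17.1%), against 10.4% of all rows.

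The proportion of methylation left in KD was slightly lower than in models with 1 row in both KD animals. This was not tested, and it was less than the 2 KD animals differed from each other. The retained share, the KD average as a percent of the control average in rows with at least 10% methylation, had a median of 59.5%, with 61.4% in KD animal 1 and 57.3% in KD animal 2. In models with 1 row the median was 60.3%, with 62.3% and 57.7% in these animals. The order was not the same in every subset of these models. The median was 60.3% in those numbered 0 and 60.7% in those numbered 1 or higher. In those without the numbered ending it was 59.3%, with 61.7% and 56.4% in KD animals 1 and 2. The quartiles were 53.1% and 65.4% in split models and 50.9% and 69.9% in models with 1 row.

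The question particular to split models was how far 2 rows of one model resemble each other. The 387 models with at least 2 distinct rows gave 590 pairs, and these were set against all 89570976 pairs of rows from different models. The median gap within models was 8.41 and 8.17 percentage points in the KD animals and 13.3 and 11.8 points in the controls. Over other pairs it was 13.0 and 12.4 points in the KD animals and 22.2 and 19.9 points in the controls. Rows of one model were therefore closer in each of the 4 animals, with gaps at 64.5% and 65.8% of those of other pairs in KD and 59.7% and 59.4% in controls (exact two-sided sign-flip permutation test, p = 0.13, the smallest 4 animals can give). Models with many rows give many pairs. With the lowest-numbered pair of each model alone, the gap averaged over animals was 9.69 points within models and 16.9 points over other pairs. Without rows of recurring values it was 7.85 points within models and 15.7 points over other pairs.

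**Figure D1:**
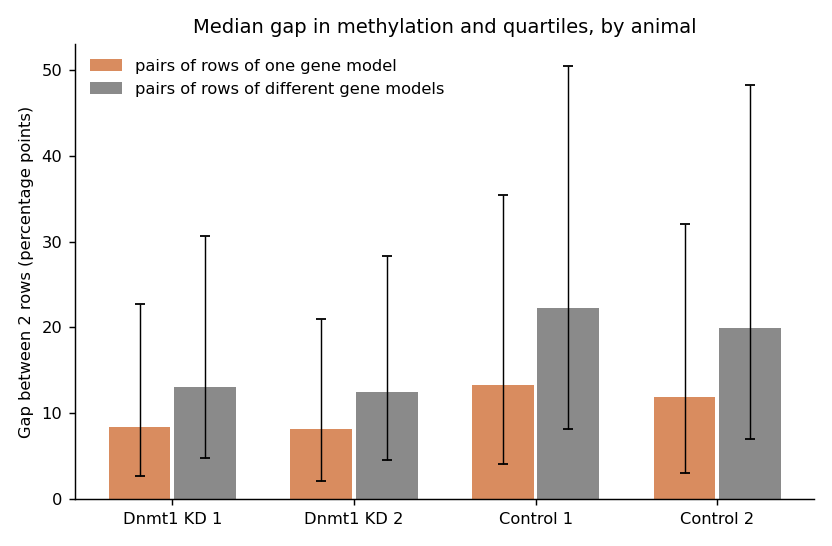
Gap in methylation between 2 rows, in percentage points, for each of the 4 animals. Bars are medians and the lines run between the quartiles, over 590 pairs of rows of one gene model (orange) and all pairs of rows of different models (grey). The orange bar is the lower one in each animal, for example 8.41 against 13.0 points in Dnmt1 KD 1.

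The size of this contrast depended on the pairs used for reference. Averaged over animals, the gap was 10.4 points within models, against 16.9 points over all other pairs, 24.7 points over pairs of split-model rows from different models and 27.2 points over pairs from different models on the same contig prefix. Rows of one model often lay at the same end of the range. In controls, both rows lay under 10% in 152 pairs (25.8%), against 17.4% of other pairs, and both lay at 50% or more in 127 pairs (21.5%), against 4.45%. When both rows had at least 10% methylation in the mean of the 4 animals, the averaged gap was 16.9 points within models and 21.3 points over other pairs.

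Rows of one model still differed by more than 1 row did between animals. The median gap in the control average was 11.5 points within models (quartiles 3.04 and 30.4), against 20.6 points over other pairs (quartiles 7.47 and 49.2). One and the same row differed between the 2 animals of a group by a median of 2.27 points in KD and 2.90 points in controls, over the 857 rows in pairs. In 225 of the 590 pairs (38.1%) the ranges over the 4 animals lay entirely apart, against 60.8% of other pairs. The same row of the pair was the higher one in all 4 animals in 375 pairs (63.6%), against 74.5% of other pairs.

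**Figure D2:**
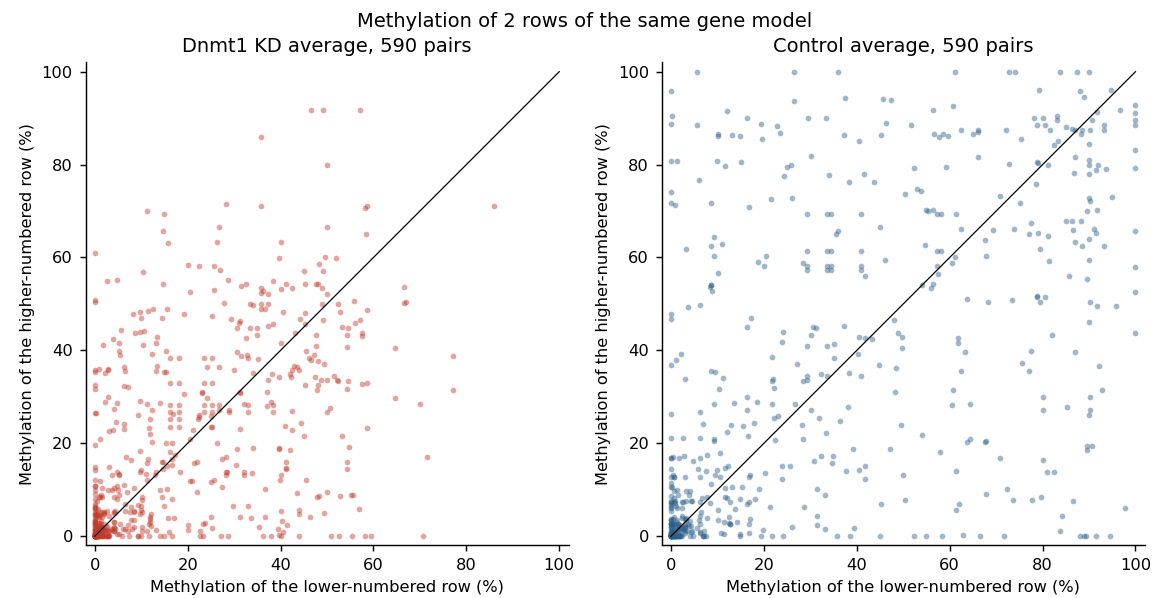
Methylation, in percent, of the lower-numbered row (x axis, a row without a number counting as lowest) and the higher-numbered row (y axis) of each of 590 pairs of rows of one gene model, as the average of the 2 Dnmt1 KD animals (left) and the 2 controls (right). The line marks equal values. Both panels show a cluster near 0 and points spread on either side of the line, and the KD panel reaches lower values.

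The one-way intraclass correlation, which is 1 when rows of a model are identical and near 0 when they are no more alike than rows of different split models, gave 0.509 for the KD average and 0.552 for the control average over 387 models and 857 rows. In single animals it was 0.498 and 0.451 in KD and 0.543 and 0.537 in controls. Among rows with a mean of at least 5% over the animals it was 0.391 for the control average. These are descriptions of 4 libraries shared by all rows.

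Of the 387 models, 74 had all rows at 50% or more in controls, 107 had all rows under 10%, 35 combined a row under 10% with a row at 50% or more, and 171 were of none of these kinds. The 23 models whose rows were all at 0 are not among them. For sets of rows drawn from different models these counts were not made. A row under 5% stood beside a row above 50% in 22 pairs from 19 models (3.73%), against 12.4% of other pairs. All 22 had ranges that lay apart over the 4 animals, and 14 of them included a row of recurring values. The choice of pairs far apart in controls makes separate ranges likely, and the share among other pairs so chosen was not computed.

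The 6 models with the largest control gap among pairs with separate ranges show this contrast. In WNGS01163947.2096841 the row numbered 2 was at 0% in all 4 animals, while the row numbered 3 had 36.7% and 35.0% in the KD animals and 91.7% and 100% in the controls. In WNGS01000009.535 the row numbered 4 was at 0% in every animal, while the row numbered 3 had 67.9% and 73.3% in KD and 95.8% and 93.3% in controls. In WNGS01163519.2038165 the row numbered 1 was at 0% throughout, while the row numbered 0 had 48.1% and 70.8% in KD and 86.6% and 96.4% in controls. These 3 models thus joined a row without detected methylation to a neighbour by number that was densely methylated and lower in KD. In WNGS01028583.733896 the row numbered 0 had 50.6% and 37.5% in KD and 95.3% and 100% in controls, and the row numbered 1 had 7.18% and 4.0% in KD and 8.57% and 3.33% in controls. In the other 2 models the control averages were 5.65% in the row numbered 1 and 100% in the row numbered 3 of WNGS01066681.1068231, and 0.136% in the row numbered 4 and 90.6% in the row numbered 7 of WNGS01162108.1961520. Of these 6 models, 5 included a row of recurring values, the exception being WNGS01163519.2038165.

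Some pairs of rows were close to each other in the controls. The rows numbered 15 and 16 of WNGS01052098.947767 had 30.4% and 35.8% (row 15) and 31.1% and 45.7% (row 16) in the KD animals, against 58.0% and 56.6% (row 15) and 66.1% and 50.2% (row 16) in the controls. In WNGS01165007.2276536 the row numbered 1 had 37.5% and 10.8% in KD and the row numbered 2 had 43.1% and 29.6%, beside control averages of 54.0% in both rows. In WNGS01007182.493710 the row numbered 0 had 83.3% and 50% in KD and the row numbered 2 had 49.6% and 57.8%, beside control averages of 91.7% and 91.3%. The 2 KD animals thus differed within a row by as much as the rows did. In WNGS01164858.2212229 the row numbered 5 had 63.7% and 36.1% in KD and the row numbered 11 had 27.3% and 40%, beside control averages of 87.1% and 87.5%. A row of recurring values was part of each of these pairs except that of WNGS01052098.947767. These 4 pairs were chosen as the closest in controls among rows with at least 10% methylation. The gaps between their KD averages, between 5.31 and 16.3 points, were all larger than their control gaps of at most 0.878 points, a difference in which the choice on the control gap takes part.

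**Figure D3:**
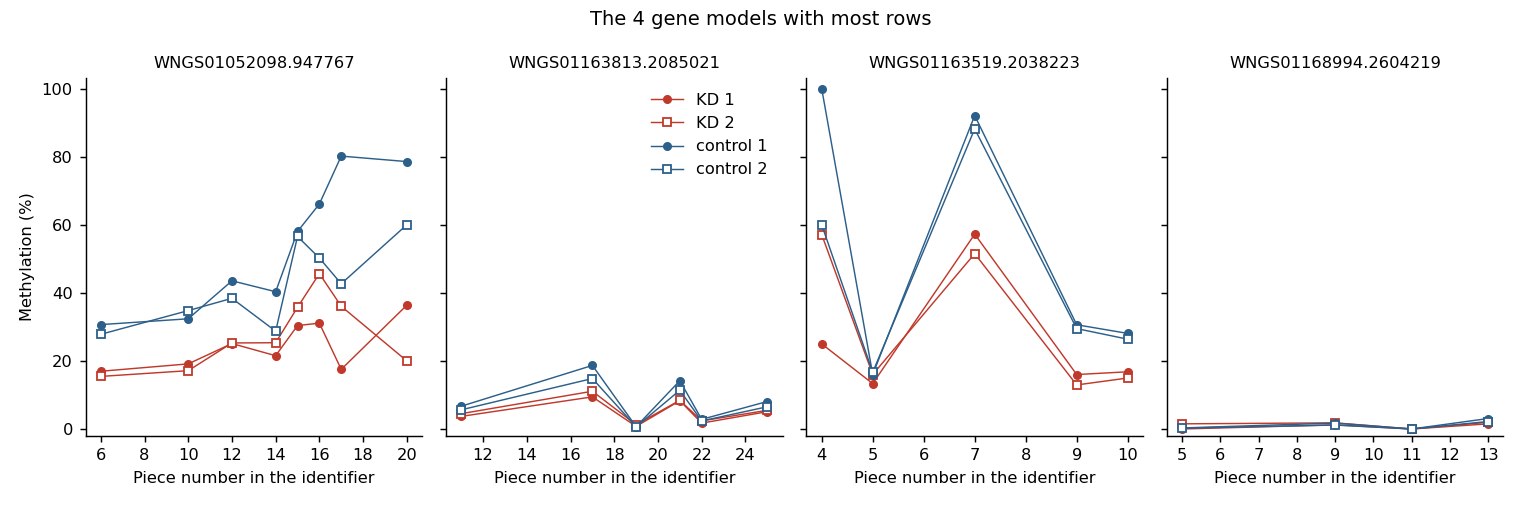
Methylation, in percent, of the numbered rows of the 4 gene models with most rows, against the piece number, in the 2 Dnmt1 KD animals (red) and the 2 controls (blue). Rows without a number are not drawn, and lines only join rows of one animal. WNGS01052098.947767 has control averages between 29.2% and 69.3%, whereas the rows of WNGS01168994.2604219 stay near 0.

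The 4 models with most rows covered the whole range. WNGS01052098.947767 had 8 rows, numbered from 6 to 20, with averages between 16.2% and 38.4% in KD and between 29.2% and 69.3% in controls. Its row numbered 6 had 17.0% and 15.4% in KD and 30.7% and 27.8% in controls, and its row numbered 20 had 36.4% and 20% in KD and 78.6% and 60.0% in controls, with recurring values. Methylation in controls was thus higher in the rows with high numbers, while all 8 rows were lower in KD, with retained shares between 40.7% and 67.9%. WNGS01163519.2038223, with 5 rows, alternated between levels. Its row numbered 7 had 57.2% and 51.5% in KD and 92.1% and 88.2% in controls. Its row numbered 9 had 16.0% and 12.9% in KD and 30.6% and 29.5% in controls. Its row numbered 5 had 13.3% and 16.0% in KD and 16.0% and 16.7% in controls, so that 1 KD value equalled the lowest control value, and this row held recurring values. The other 2 models reached only lower levels. The 7 rows of WNGS01163813.2085021 had averages between 1.01% and 10.3% in KD and between 0% and 16.7% in controls. Its control average was 16.7% in the row numbered 17 and 0.654% in the row numbered 19. The 5 rows of WNGS01168994.2604219 had averages of at most 1.74% in KD and 2.64% in controls.

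The gap between rows was smaller in the KD animals. The median gap within models was 8.29 ± 0.168 points in Dnmt1 KD and 12.6 ± 1.01 points in controls (SD, n = 2 each), a difference of -4.26 points (exact two-sided permutation test, p = 0.33, the smallest possible). The KD gap was 66.0% of the control gap within models and 60.4% over other pairs. To follow the same pairs without choosing and measuring in 1 animal, the 331 pairs over 10 points apart in control 1 were read in the other animals. Their order was kept in 303 pairs in KD animal 1, 288 in KD animal 2 and 305 in control 2. Their median gap in that order was 18.9 and 16.5 points in the KD animals and 26.5 points in control 2, so that the KD gaps were 71.4% and 62.3% of the gap in control 2. For the 318 pairs over 10 points apart in control 2, the order was kept in 292 and 276 pairs in the KD animals and 287 in control 1. Their median gaps were 19.5 and 16.7 points in KD and 30.8 points in control 1, which is 63.2% and 54.1% of the control value. In both choices most pairs kept their order, and the KD gaps lay between 54.1% and 71.4% of the control gap, beside a median retained share of 59.5% for single rows. Pairs of rows from different models were not followed in this way, so the kept order is not shown to be particular to split models.

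Rows of one model also resembled each other in the difference between KD and control. The median gap in this difference was 6.60 points within models and 9.66 points over other pairs. It was 6.46 and 7.37 points within models for KD animals 1 and 2 against the control average, and 9.36 and 10.7 points over other pairs. Both rows were lower by more than 10 points in 217 pairs (36.8%), against 13.1% of other pairs, exactly 1 row in 148 pairs (25.1%), against 46.5%, and neither in 225 pairs (38.1%), against 40.4%. The intraclass correlation of the difference was 0.431, and when 1 row was read in the animals numbered 1 and the other in those numbered 2 the correlation over the pairs was 0.348. For pairs in which both rows had at least 10% methylation, the gap in the difference was 11.2 points within models and 12.1 points over other pairs.

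Counted by model, every row was lower by more than 10 points in 120 models, no row in 155, and only some rows in 112. Of models with 1 row, 35.3% were lower by more than 10 points. For sets of rows drawn from different models no such counts were made. In those 112 models, 125 rows were not lower by this rule, and 97 of them (77.6%) had less than 20% methylation in controls, against 90.5% of all rows in the table that were not lower.

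In the retained share, rows of one model were not much closer than rows of different split models. The median gap was 10.1 percentage points over 292 pairs from 188 models, against 15.0 points over all other pairs but 11.4 points over pairs of split-model rows from different models. In single KD animals it was 12.0 and 13.5 points within models and 17.9 and 20.4 points over all other pairs. One and the same row differed between the 2 KD animals by a median of 11.2 points, over 417 rows. The same row of the pair retained more in both KD animals in 155 of 292 pairs (53.1%). No share over other pairs was computed for this count. With 2 KD animals unrelated orders also often agree, so the count marks no trait of split models. The intraclass correlation was -0.241 on the values and 0.0282 on their ranks. The value on the original scale turned on single rows and animals, since it was -0.0186 without rows of recurring values, -0.00511 without control 1 and -0.0211 without control 2.

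**Figure D4:**
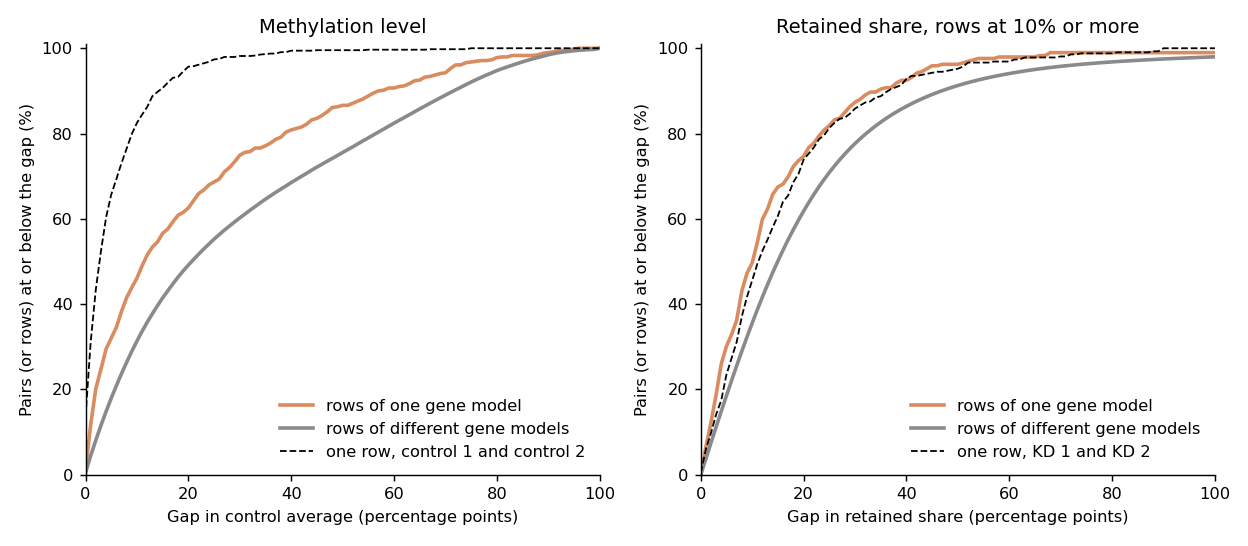
Share of pairs, in percent, at or below a given gap in percentage points, for the control average (left) and the retained share (right), for rows of one gene model (orange) and rows of different models (grey). The dashed line is the gap of one row between 2 animals of a group, which rests on single animals and not on averages. On the left the orange line lies between the other lines, with medians of 11.5 against 20.6 points, and on the right it runs close to the dashed line.

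**Figure D5:**
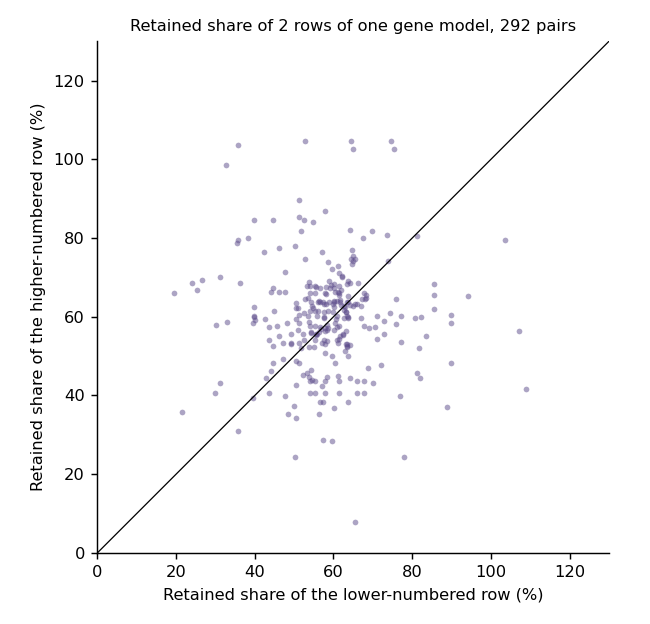
Retained share, in percent, of the lower-numbered row (x axis) and the higher-numbered row (y axis) for the 292 pairs of rows of one gene model with at least 10% methylation in both rows. The line marks equal values, and 3 pairs beyond 130% are not drawn. The points form 1 cloud around the median of 59.5% with no band along the line.

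The 6 models with the widest retained shares were read one by one. In WNGS01164858.2205135 the row numbered 0 had 34.2% and 30% in KD and 0% and 18.3% in controls, whereas the row numbered 1 had 23.9% and 32.8% in KD and 59.7% and 68.9% in controls. Row 0 was 1 of only 3 split-model rows that were higher in KD by the rule of 0.1. The other 2 were the row numbered 2 of WNGS01008307.520354, with 27.2% and 23.4% in KD and 2.86% and 5.87% in controls, and the row numbered 4 of WNGS01041213.837505, with 40.5% and 26.7% in KD and 18.5% and 11.1% in controls, values that recurred. These 2 rows were named after their values were seen, and limma gave adjusted p-values of 0.0793 and 0.142 for them over all rows. In WNGS01008156.517970 the rows numbered 1 and 2 had control averages of 56.0% and 53.3%, and retained 65.4% and 7.81%. Its row numbered 2 had 8.33% and 0% in KD and 66.7% and 40% in controls, so its 2 control animals also lay far apart. In WNGS01052365.950877, the only one of the 6 without a row of recurring values, the row numbered 2 had 14.7% and 13.5% in KD and 14.9% and 11.0% in controls, and the row numbered 4 had 10.8% and 9.10% in KD and 16.5% and 31.3% in controls. The remaining 3 models also held a row whose animals of 1 group lay far apart. The row numbered 1 of WNGS01163813.2084769 had 71.4% and 0% in KD and 100% in both controls, while its row numbered 2 had 83.1% and 88.9% in KD and 91.1% and 75% in controls. The row numbered 3 of WNGS01162108.1961531 had 71.4% and 60% in KD and 100% and 33.3% in controls, while its row numbered 1 had 23.7% and 5.75% in KD and 50.9% and 39.0% in controls. The row numbered 12 of WNGS01164858.2224560 had 42.9% and 100% in KD and 100% and 83.3% in controls, while its row numbered 15 had 18.8% and 15.5% in KD and 62.5% and 77.8% in controls.

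Within models, methylation neither mostly rose nor mostly fell with the piece number. In the 375 models whose lowest and highest numbered rows held different values, the row with the highest number lay above the row with the lowest in 180 and 178 models in the KD animals and in 184 and 183 in the controls, and below it in 180 and 161 models in KD and 179 and 173 in controls. Among 61 models with at least 3 numbered rows, the level went up at every step in 7 and 5 in the KD animals and 6 and 5 in the controls, and down at every step in 7 and 9 in KD and 9 and 6 in controls. Of these models 51 had 3 such rows, and the share expected without any order was not computed. By distance in number, the median gap was smallest in pairs 3 or more apart. These pairs were pooled over models and not matched for level, so how distance acts within a model was not tested. The median gap was 9.06 and 8.87 points in KD and 13.3 and 13.9 points in controls for the 241 pairs 1 number apart. It was 10.7 and 12.7 points in KD and 18.0 and 14.2 points in controls for the 123 pairs 2 numbers apart, and 7.17 and 6.66 points in KD and 12.9 and 10.9 points in controls for the 198 pairs 3 or more apart. Pooled over models, rows numbered 3 or higher had lower means, 18.4% and 16.6% in KD and 31.1% and 28.3% in controls over 347 rows, than rows numbered 0, with 21.4% and 19.5% in KD and 36.9% and 34.1% in controls over 157 rows.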

How the data were processed

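Methylation was measured by whole-genome bisulfite sequencing of hemocytes from 2 Dnmt1 KD and 2 control animals. Per the study's methods, the authors trimmed reads with Trim Galore, aligned them with Bismark and Bowtie2 to the P. virginalis genome, removed duplicates, dropped CpGs under a combined coverage of 10 and kept genes with at least 10 CpGs. The submitters' processing notes name bedtools 2.24.0. The name of the build is not stated in the sources used here. The deposited values are fractions (average methylation ratio per row and animal, 0 to 1) without counts, so the depth and counting error of a row are unknown (the study lists depth per library only). They were multiplied to percent.

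Rows identical within a model were counted once. Pairs of different models were enumerated in full, leaving out pairs with identical values. Mean level, its excess over models with 1 row, the gap in level and its contrast with other pairs were compared over animals by exact permutation. Agreement in the KD difference, the retained share and the intraclass correlations were described without a test. Single rows were tested by limma 3.58.1 (R 4.3.3) with a trend on the fraction, for rows above 0 in some animal, with 2 residual degrees of freedom. Other values used python 3.11.15, numpy 2.4.6, pandas 2.3.3 and scipy 1.17.1. Limma, the intraclass correlation and the pair count were tested on simulated data. The retained share used rows with at least 10% in the 4-animal mean.

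Models named were the 4 with most rows, the 6 with the largest control gap among pairs of separate ranges, the 4 with the smallest control gap at 10% or more in both rows, and the 6 with the largest gap in retained share in the same order in both KD animals. Members, names and comparisons were chosen with earlier results of these data known, and no gene list was used. No label says that a replicate number marks a shared animal or batch. Same-numbered deviations did not correlate over rows, a measure that does not register a shift common to all rows. The study lists more raw reads and a lower mapping efficiency for animal 1 than for animal 2 in both groups. Alternatives left out each animal, kept identical rows, and changed the members, filters, reference pairs and limma's settings.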

Additional observations from a re-analysis of the deposited data

How the results depend on the processing

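Every direction recomputed under the alternatives held, except for the intraclass correlation of the retained share. That one changed sign on ranks (0.0282, chosen after seeing the data). The contrast in retained share with models with 1 row was not recomputed. The excess in level over these models was recomputed only with every row counted. It was then 3.71 and 3.35 points in the KD animals and 6.77 and 6.94 points in the controls. The KD minus control difference in mean level lay between -20.1 and -11.0 points and that of the median gap between -7.27 and -3.47 points, and the gap within models minus that of other pairs lay between -16.8 points (same contig prefix) and -3.81 points (rows of at least 5%). The replicate block gave -13.6 points for the mean level, 328 rows (37.3%, against 26.9% of all rows) lower within both numbers and 0 limma calls. The correlation of same-numbered deviations was 0.00192 over all rows, and animal 1 lay above animal 2 in mean level in both groups, as it did in sequencing depth. Rows lower by the rule were 263 (29.9%, against 20.1% of all rows) at a difference of 0.2. Limma called 130 rows (21.7%, against 15.7%) without recurring values and 136 (17.1%, against 10.4%) without a trend. Within minus other pairs, the gap in the KD difference was -3.49 points with every row, -2.20 with only numbered models, -4.22 without recurring values, -1.24 for rows of at least 5%, -3.43 with 1 pair for each model, -2.61 with the largest gap of each, -8.72 against the same contig prefix, -6.73 against other split models, -2.55 across different animals and -0.897 for pairs of at least 10% (chosen after seeing the data), and between -3.98 and -2.39 without single animals. The gap in retained share within minus other pairs, -4.89 points, was -6.09 with 1 pair for each model, -2.61 against the same contig prefix, -1.28 against other split models, -1.36 against these without recurring values (chosen after seeing the data), -3.08 at a minimum of 20%, and between -6.82 and -5.0 without single animals. The median retained share lay between 56.9% and 62.6% without single animals. The intraclass correlation of the control average was 0.576 with every row, 0.542 with only numbered models, 0.516 without recurring values, 0.391 for rows of at least 5%, 0.542 across different animals and 0.537 to 0.552 without single animals. That of the KD difference was 0.455, 0.427, 0.473, 0.269 and 0.348 under the same alternatives and 0.386 to 0.404 without single animals. That of the retained share was -0.0186 without recurring values and -0.217 to -0.00511 without single animals. The cause of these shifts was not tested. With 2 animals a group and no depth for each row, no single row could be placed with confidence, and how many reads lie behind values of 0% and 100% is unknown.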
